A study of Homo sapiens with 12 samples.

Results

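The comparison described here is that of olaparib added to radiation against radiation alone in SBC5, a long-established cell line grown from a human small cell lung cancer. Its members are 6 of the 12 libraries of the series, 3 of radiation and 3 of the combination, chosen by their treatment labels. Olaparib inhibits the DNA repair enzymes PARP1 and PARP2. Radiation libraries came from cells given the solvent DMSO and 4 Gy of gamma rays, and combination libraries from cells given 1 µM olaparib and, 2 hours later, the same dose. The 3 vehicle libraries (DMSO, 0 Gy) gave the untreated level. All cells carried the genotype label WT and were collected after 3 days, and strand-marked total RNA libraries were sequenced. The work rests on 1 cell line, and nothing in the sources says whether libraries of a group came from separate cultures, so the p-values measure the spread between libraries, which may be technical.

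PARP1 and PARP2 bind breaks in DNA and mark the site with chains of ADP-ribose, which draws in factors that repair single-strand breaks. An inhibitor of their activity also holds the enzymes on DNA, and cells then depend more on homologous recombination, the pathway of BRCA1 and BRCA2, when replication forks meet the lesion. PARP inhibitors raise the killing of many tumour lines by radiation, and small cell lung cancer is a tumour type in which both have been studied.

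Total counts ran from 14.3 to 30 in radiation and from 19.4 to 20.6 in the combination, in units of 1e+06 counts. Library 3 of radiation stood apart. Its summed level over 404 olfactory receptor genes, which are largely silent outside the nose, was 920.2 counts per 1e+06 of the library total, without scaling factors. That sum was 356.5 and 486.5 in radiation 1 and 2, 461.3 to 501.4 in the combination and 354.7 to 432.6 in vehicle. Levels elsewhere are scaled counts per 1e+06 (CPM). Radiation 3 held a count for 42602 genes, against 30918 to 35210 in the other 8 libraries, and was the shallowest. Each result is therefore given with and without it: 3 combination libraries against 3 radiation libraries, and against radiation 1 and 2. Of the markers of small cell lung cancer, YAP1 (81.2 to 126.0 CPM), REST (up to 252.0) and SOX2 were well expressed, as were the neuroendocrine genes SYP (16.8 to 27.8), UCHL1 (44.2 to 60.2) and SCG2 (72.5 to 145.0). Other neuroendocrine genes were near 0 or low: CHGA reached at most 0.75 CPM, GRP 0.239, SCG3 1.06, DLL3 2.06, CHGB 4.11 and NCAM1 4.94. Of the neuroendocrine factors, INSM1 reached at most 0.291 CPM and NEUROD1 0.441 to 4.06. Of 14 leukocyte markers only CD68, which tumour cells also express, exceeded 4 CPM, and CD3D was at 0 in all 9 libraries.

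Few transcripts were called when olaparib was added to radiation, and most called changes were small. In simulated counts, 16.7% of genes changed by 0.5 on the log2 scale were recovered without radiation 3. Few calls therefore do not show that few transcripts changed. Against all 3 radiation libraries, 1 of 26064 genes passed an adjusted p of 0.05 (0.00384%), SORD2P, while 0 were lower and 1694 (6.5%) had an unadjusted p under 0.05 in either direction. DESeq2 called 12 higher and 10 lower on the same libraries, and limma-voom 0. Against radiation 1 and 2, 116 of 27054 genes passed (0.429%): 22 were higher (0.0813%) and 94 lower (0.347%), with a median absolute log2 change of 0.474, and 2713 (10.0%) had an unadjusted p under 0.05. Only 12 of the higher and 5 of the lower calls reached a log2 change of 1. The split depended on the scaling: with library size alone, which moved the median log2 change of all genes from 0.026 to 0.115, 64 genes were higher and 41 lower. A gene was said to have risen or fallen (held) where it passed in either fit, kept its sign in both, and had all 3 combination libraries on 1 side of all 3 radiation libraries. By that rule 12 genes rose (0.0444%) and 33 fell (0.122%), but SORD2P alone of them passed with radiation 3. These counts were not stable: the rises numbered 3 without combination 2, 6 without radiation 1 and 66 without radiation 2, and the falls 13 without radiation 1 and 52 without radiation 2. Over the other settings the rises ran from 0 to 55 and the falls from 0 to 70. In bulk RNA, fewer cells of a type and less RNA per cell cannot be told apart.

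**Figure D1:**
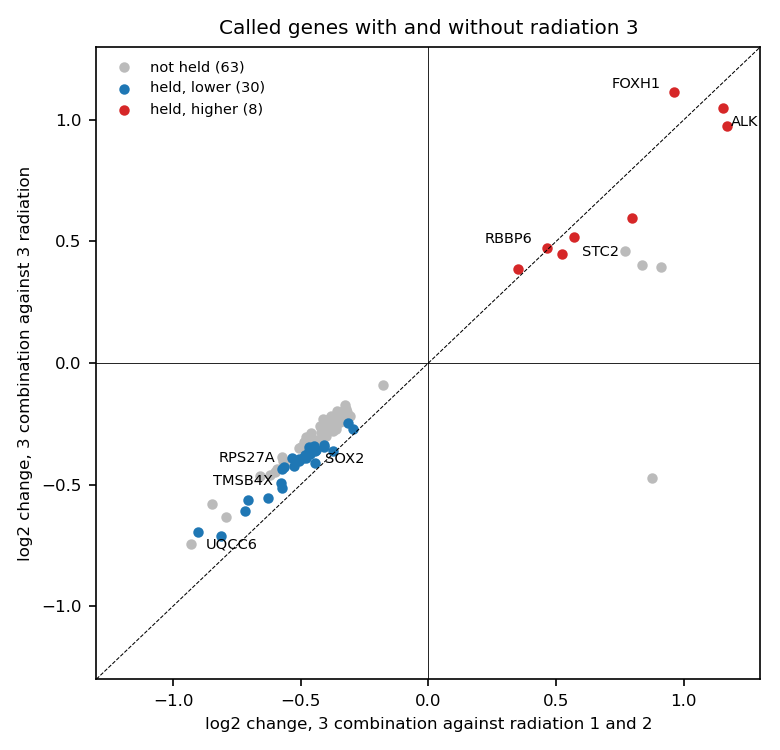
Log2 change of the combination against radiation for genes called without radiation 3, with radiation 1 and 2 as the reference (horizontal axis) and with all 3 radiation libraries (vertical axis). Points are genes, the dashed line marks equal values, 101 genes lie inside the axes of 1.3 and 14 outside, and 1 was not tested with radiation 3. All lower calls inside the axes lie above the dashed line, nearer to 0 when radiation 3 is included.

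The sign was kept in both fits for 93 of the 94 lower calls and 20 of the 22 higher calls. The lower calls sat among abundant transcripts. Of the 1397 tested genes with a mean of at least 100 CPM, 55 were called lower and 1 higher, and their median log2 change was -0.09 without radiation 3 and -0.01 with it. That median depended on the scaling: without radiation 3 it was 0.00071 with library size alone and -0.05 with scaling from genes of at least 10 CPM. The median over the 9 libraries was 62.3 CPM for the genes that fell, 9.93 for those that rose and 2.88 for all tested.

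STC2, which encodes stanniocalcin 2, a secreted glycoprotein induced by cell stress, rose. Its level in radiation 1, 2 and 3 was 73.6, 67.1 and 78.4 CPM, and in the combination 106.7, 105.4 and 101.6 CPM. Every combination library was above every radiation library, and the mean in vehicle, 54.1 CPM, was below both. The log2 change was 0.57 ± 0.093 (SE) without radiation 3 (edgeR adjusted p = 0.00131) and 0.52 ± 0.10 with it (adjusted p = 0.163). The call was kept in each of 8 fits that left out 1 further library. RBBP6, a ubiquitin ligase that binds p53 and RB and takes part in mRNA 3′ end processing, measured 69.5, 60.0 and 63.6 CPM in radiation and 85.5, 91.4 and 91.5 CPM in the combination. The groups did not overlap, and the log2 change was 0.47 ± 0.094 without radiation 3 (edgeR adjusted p = 0.014) and 0.48 with it. Vehicle stood at 81.6 CPM, so that the combination lay near the untreated level and radiation below it. The RBBP6 call was lost without radiation 2, combination 2 or combination 3, with adjusted p of up to 0.13.

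FOXH1, a forkhead factor that partners SMAD proteins in nodal and activin signalling, measured 6.28, 10.8 and 5.81 CPM in radiation and 14.8, 15.9 and 19.2 CPM in the combination. Its log2 change was 0.96 ± 0.21 without radiation 3 (edgeR adjusted p = 0.0244) and 1.11 with it. The receptor tyrosine kinase gene ALK measured 4.11, 3.36 and 4.63 CPM in radiation and 7.79, 8.40 and 8.78 CPM in the combination, a log2 change of 1.15 ± 0.27 (edgeR adjusted p = 0.0396) without radiation 3 and 1.05 with it. In both genes the lowest combination library was above the highest radiation library, and the vehicle means of 13.6 CPM (FOXH1) and 6.52 CPM (ALK) lay between the groups. The FOXH1 call was lost without radiation 1, combination 2 or combination 3 (adjusted p of up to 0.525). Leaving out vehicle 1 or 2, either radiation library or any combination library ended the ALK call (up to 0.168).

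IGF2BP1 encodes an RNA-binding protein that stabilises IGF2, MYC and other mRNAs. It measured 94.0, 90.3 and 85.2 CPM in radiation and 111.1, 122.8 and 119.0 CPM in the combination, close to the vehicle mean of 122.2 CPM. The groups did not overlap, and the log2 change was 0.35 ± 0.083 without radiation 3 (edgeR adjusted p = 0.0479) and 0.39 with it. This call sat at the threshold and was lost on leaving out any of the 8 libraries, with adjusted p of up to 0.192. IGF2 itself, a growth factor gene, measured 23.8, 27.2 and 27.9 CPM in radiation and 39.3, 35.9 and 34.1 CPM in the combination, without overlap, but did not pass (log2 change 0.51 ± 0.13, edgeR adjusted p = 0.0829 without radiation 3). Vehicle stood at 12.8 CPM, below both groups.

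Among the other rises, the zinc finger gene ZSCAN32 went from 4.58, 4.33 and 6.50 CPM to 9.68, 11.8 and 8.59 CPM, and ATXN7L1 from 9.87, 10.8 and 15.2 CPM to 16.5, 18.2 and 19.1 CPM. The long non-coding RNA MIR4435-2HG went from 29.9, 36.5 and 38.6 CPM to 47.6, 49.1 and 46.4 CPM. The edgeR adjusted p without radiation 3 was 0.0274, 0.0326 and 0.0244 for these 3, and each was lost without radiation 1 and at least 2 other libraries: radiation 2, combination 1 and combination 2 for ZSCAN32 (adjusted p of up to 0.177), radiation 2 and any combination library for ATXN7L1 (up to 0.323), and any combination library for MIR4435-2HG (up to 0.504). MIR4435-2HG has a near-identical copy, CYTOR, between which reads can be split; CYTOR measured 23.4, 23.4 and 24.0 CPM in radiation and 22.4, 21.3 and 24.5 CPM in the combination. SORD2P, a pseudogene of the sorbitol dehydrogenase gene SORD, was at 0, 0.0747 and 0.188 CPM in radiation and 3.33, 1.10 and 2.47 CPM in the combination, with vehicle at 2.84 CPM. It was the only call in both fits (edgeR adjusted p = 0.0406 with radiation 3 and 0.000527 without), and the radiation libraries were the low ones of the 9. The call without radiation 3 was kept in all 8 fits that left out 1 library but lost with limma-voom (adjusted p = 0.29), and DESeq2 gave it no adjusted p. The call with radiation 3 was lost with library size alone (edgeR adjusted p = 0.0718), the stricter count filter (0.0681), the compared groups alone (0.323) and limma-voom (0.614), and without any 1 of the vehicle libraries, radiation 1 or 2, or combination 1 or 3 (0.0562 to 0.232). Its counts are uncertain because reads of SORD can be assigned to it. ZNF816 was higher in each combination library (4.08 to 5.46 CPM against 1.19 to 2.25) without passing (edgeR adjusted p = 0.0526). The remaining 3 of the 12 have no symbol in the name table used.

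**Figure D2:**
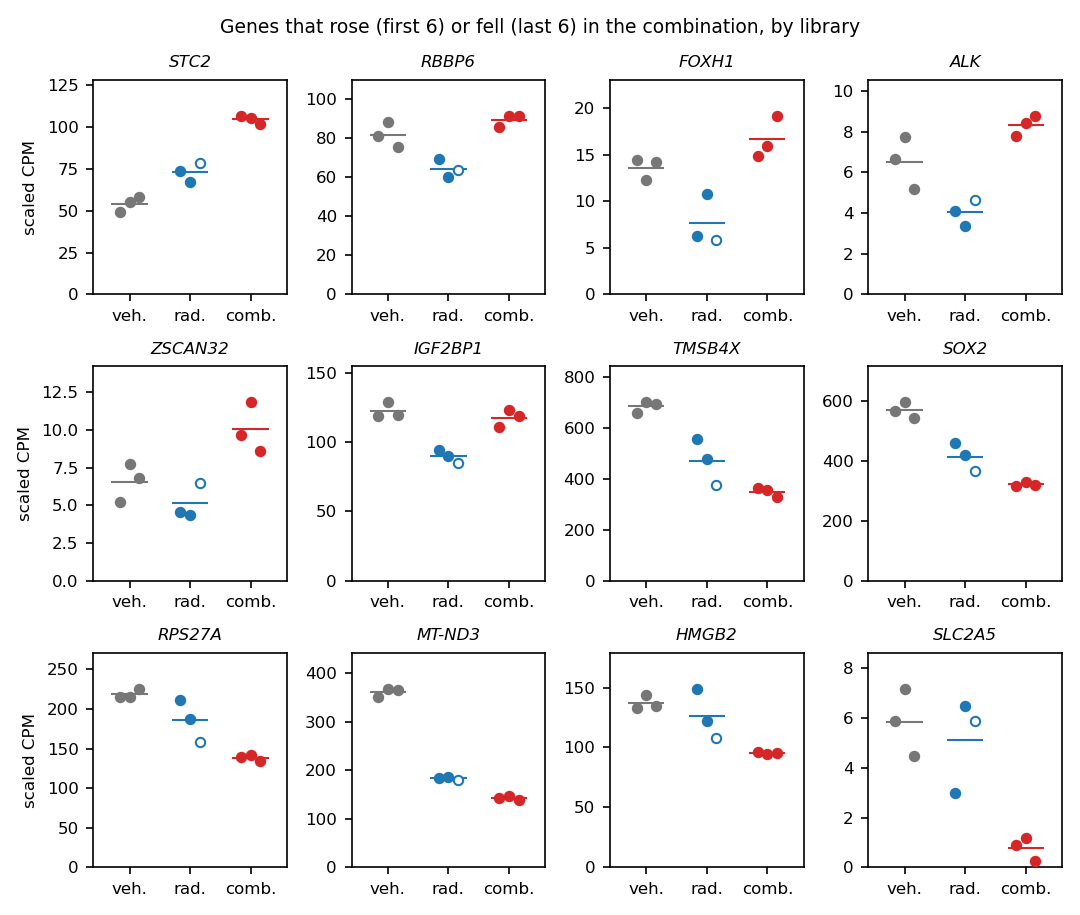
Level of 12 genes in each library, in scaled CPM on axes that start at 0, for vehicle, radiation and the combination. Points are libraries 1 to 3 from left to right, the open circle is radiation 3, and lines are group means. All 12 genes were held, a rule that requires the 3 combination libraries to lie on 1 side of the 3 radiation libraries. In STC2 the combination libraries sit between 101.6 and 106.7 CPM.

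Of the falls, the smallest p without radiation 3 was that of TMSB4X, which encodes thymosin beta 4, the main protein that holds actin monomers out of filaments. It measured 556.1, 479.2 and 374.7 CPM in radiation and 362.9, 356.6 and 330.1 CPM in the combination, with vehicle at 683.9 CPM. The groups did not overlap, although radiation 3 came close to the combination. The log2 change was -0.57 ± 0.071 without radiation 3 (edgeR adjusted p = 8.7e-05) and -0.43 ± 0.11 with it (adjusted p = 0.507). SOX2, a transcription factor amplified in a share of small cell lung cancers, measured 459.5, 417.6 and 364.7 CPM in radiation and 317.5, 329.6 and 320.5 CPM in the combination, with vehicle at 567.4 CPM. Its log2 change was -0.44 ± 0.069 without radiation 3 (edgeR adjusted p = 0.00117) and -0.36 with it. HMGB2, a chromatin protein that bends DNA and peaks in dividing cells, fell from 149.0, 122.0 and 107.7 CPM to 96.1, 94.9 and 95.8 CPM (log2 change -0.50 ± 0.085, edgeR adjusted p = 0.00213 without radiation 3). The HMGB2 call was lost without radiation 1, with an adjusted p of 0.2, while those of TMSB4X and SOX2 were kept in all 8 fits. HMGB2 was chosen after its values were seen.

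SLC2A5, which encodes the fructose transporter GLUT5, showed the largest fall among held genes with at least 1 CPM in radiation in both fits. SLAMF7 fell further (log2 change -5.57 without radiation 3) but averaged 0.976 CPM in radiation 1 and 2. SLC2A5 measured 2.99, 6.46 and 5.88 CPM in radiation and 0.894, 1.19 and 0.243 CPM in the combination. The highest combination library was below the lowest radiation library, vehicle stood at 5.83 CPM, and the log2 change was -2.59 ± 0.45 without radiation 3 (edgeR adjusted p = 0.00537) and -2.70 ± 0.44 with it (adjusted p = 0.0725). With radiation 3, SLC2A5 had the smallest p of the falls. The call was kept in all 8 fits that left out a library and with limma-voom, and DESeq2 gave it no adjusted p. ANK3, a gene for the membrane scaffold ankyrin G, went from 18.4, 19.1 and 14.9 CPM to 11.4, 9.32 and 11.4 CPM (log2 change -0.81, edgeR adjusted p = 0.0282 without radiation 3). CCDC34, MANEA, an endomannosidase of the Golgi, and ZNF670 fell by 0.63, 0.57 and 0.71 on the log2 scale. These 4 calls were lost without radiation 1 and other libraries: radiation 2 and any combination library for ANK3 (adjusted p of up to 0.177), combination 2 or 3 for CCDC34 (0.631), radiation 2 or combination 2 or 3 for MANEA (0.11), and any of vehicle 1 and 2, radiation 2, combination 2 and combination 3 for ZNF670 (0.142). All 4 were also lost with library size alone. Chosen after their values were seen, HBP1, a repressor of cell cycle genes, went from 139.4, 137.7 and 99.99 CPM to 95.8, 94.2 and 97.6 CPM, and PTMA, the gene of prothymosin alpha, from 724.7, 587.7 and 542.2 CPM to 454.2, 496.2 and 480.2 CPM. The edgeR adjusted p without radiation 3 was 0.000721 for HBP1, kept in all 8 fits, and 0.00131 for PTMA, lost without radiation 1 (0.153) and with limma-voom. PTMA, TMSB4X and the ribosomal protein genes have processed pseudogenes, to which some of their reads can be assigned.

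Ribosomal proteins form the small and large subunits of the ribosome, and their mRNAs start with a run of pyrimidines (C or T), the 5′ terminal oligopyrimidine tract, through which the kinase mTOR controls their translation. Of 78 cytosolic ribosomal protein genes, 15 were called lower without radiation 3 (against 0.347% of all genes) and 0 higher. Lower calls were commoner among abundant genes, at 55 of the 1397 of at least 100 CPM. Of the 15, 2 were held, RPS27A and RPL34, though neither passed with radiation 3 (edgeR adjusted p = 0.391 and 0.609). The list's median log2 change was -0.28 without radiation 3 and -0.17 with it, beside 0.03 and -0.04 for all genes, and it was below 0 under each scaling tried. In 64 of the 78 the change was below 0 in both fits. RPS27A, which encodes ribosomal protein eS31 fused to ubiquitin, measured 211.8, 186.7 and 158.7 CPM in radiation and 139.2, 141.7 and 134.2 CPM in the combination, with vehicle at 218.8 CPM. The groups did not overlap, the log2 change was -0.53 ± 0.077 without radiation 3 (edgeR adjusted p = 0.000721) and -0.43 with it, and the call was kept in all 8 fits. RPL34 measured 62.7, 62.8 and 54.3 CPM in radiation and 45.9, 45.1 and 50.8 CPM in the combination (log2 change -0.41 ± 0.096, edgeR adjusted p = 0.0419 without radiation 3). Leaving out any of vehicle 1 and 2, radiation 1 and 2, or combination 1 and 2 ended the RPL34 call, with adjusted p of up to 0.237, and so did library size alone.

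The sequences around the starts of 5 of the called ribosomal protein genes follow, and 4 of them hold a long run of C and T across the annotated start. Each is 30 bases from RefSeq (GRCh38.p14), 15 before the annotated start and 15 from it, 5′ to 3′, with the longest run of C and T in capitals; RPL34 and RPS27A are shown as the 2 that fell, and the other 3 as examples of long runs, chosen after the runs were seen.
RPL34 (chr4:108620561-108620590, + strand): aaaggCTTTTTTCTTCCTCTTCCggggacg
RPL7A (chr9:133348203-133348232, + strand): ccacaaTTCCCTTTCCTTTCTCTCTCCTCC
RPL13A (chr19:49487593-49487622, + strand): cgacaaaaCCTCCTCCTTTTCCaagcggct
RPS23 (chr5:82278340-82278369, - strand): tcctgcggtgCTTCTCTCTTTCgctcaggc
RPS27A (chr2:55231888-55231917, + strand): taaggagtgacacacaagacccagaCTCTT
The run was 18 bases long in RPL34, at least 24 in RPL7A, 14 in RPL13A and 12 in RPS23. In RPL7A it reached the end of the window. The runs of these 4 genes began, in that order, at positions -10, -9, -7 and -5 from the annotated start. Part of each run therefore lay upstream of the annotated mRNA. In RPS27A the longest run in this window was 5 bases, at its end. A run of at least 6 anywhere in the window, touching the start or not, was present in 53 of the 62 ribosomal protein genes in the RefSeq table (85.5%). It was present in 9 of the 11 of these called lower (81.8%), and in 30.7% of 27305 genes of the table in the same window. RPL7A, a protein of the large subunit, measured 232.2, 210.6 and 142.1 CPM in radiation and 170.7, 175.0 and 153.8 CPM in the combination, and RPS23, of the small subunit, 107.3, 100.9 and 71.9 CPM against 81.1, 77.5 and 61.4 CPM. Radiation 3 lay below all combination libraries in RPL7A and among them in RPS23, and both were called without radiation 3 only (edgeR adjusted p = 0.011 and 0.00781).

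Summed over the 78 genes, ribosomal protein mRNA was 16980, 14960 and 12490 CPM in radiation and 14120, 14070 and 13320 CPM in the combination. The groups overlapped, and the log2 ratio of the means was -0.10 (exact two-sided permutation p = 0.5, where 3 against 3 cannot go below 0.1). Without radiation 3 it was -0.21 (exact permutation p = 0.2, the smallest that 3 against 2 allows), and without radiation 1 it turned to 0.01. Of the translation factors, 1 of 34 was called lower without radiation 3, the helicase gene EIF4A2, whose 249.7 CPM in radiation 3 lay below all combination libraries (275.4 to 295.8 CPM). The median log2 change of the translation factors was -0.10 without radiation 3 and -0.01 with it.

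Among the 31 proteasome subunits, 1 was called, the core subunit gene PSMA2, which fell from 71.0, 65.5 and 56.9 CPM to 54.4, 40.9 and 42.1 CPM (log2 change -0.58 ± 0.11, edgeR adjusted p = 0.0056 without radiation 3). The PSMA2 call was lost without radiation 1, combination 2 or combination 3 (adjusted p of up to 0.1). The median log2 change of the proteasome list was -0.16 without radiation 3 and -0.07 with it.

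**Figure D3:**
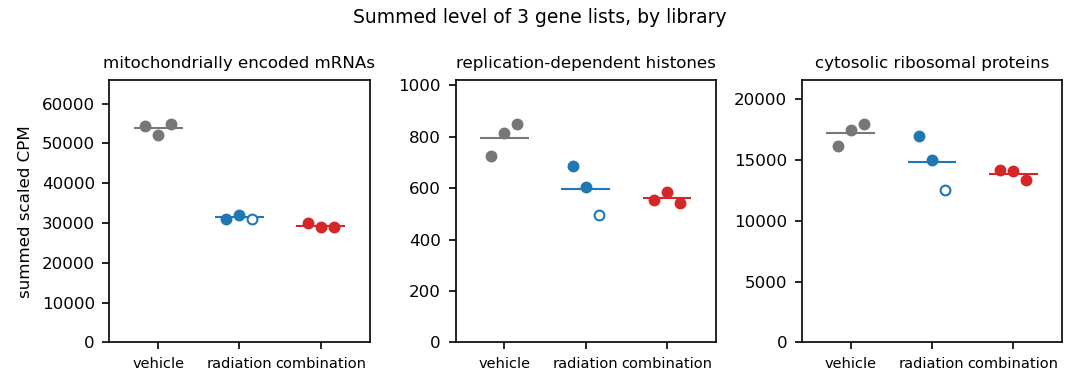
Summed level, in scaled CPM on axes that start at 0, of the mitochondrially encoded mRNAs, the replication-dependent histone mRNAs and the cytosolic ribosomal protein mRNAs in each library of vehicle, radiation and the combination. Points are libraries 1 to 3, open circles radiation 3, and lines group means. For mitochondrial mRNAs the combination (28930 to 29880 CPM) lies just below radiation (30990 to 32100 CPM), and in the other panels the groups overlap.

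Mitochondrial mRNAs encode 13 subunits of the respiratory chain and ATP synthase. Summed, they were 31030, 32100 and 30990 CPM in radiation and 29880, 28930 and 28960 CPM in the combination, far below the vehicle mean of 53780 CPM. The 2 treated groups did not overlap, yet the step between them was small, a log2 ratio of -0.10 with radiation 3 (exact two-sided permutation p = 0.1, the smallest possible) and -0.11 without it. With library size alone in place of the scaling factors the ratio was -0.08 (exact permutation p = 0.4) and the groups overlapped. MT-ND3, which encodes a subunit of complex I, was the 1 member of 13 that was called. It measured 184.5, 185.3 and 180.5 CPM in radiation and 143.4, 147.0 and 138.0 CPM in the combination, with vehicle at 361.5 CPM. Here radiation 3 lay close to the other radiation libraries, and the log2 change was -0.37 ± 0.072 without it (edgeR adjusted p = 0.00803) and -0.36 ± 0.088 with it (adjusted p = 0.391). The MT-ND3 call was lost without radiation 1 or combination 3 (adjusted p of up to 0.0693) and with library size alone (edgeR adjusted p = 0.0592). Without overlap but short of the threshold were MT-ND5, MT-CO3, MT-ATP6 and MT-ND4L, with log2 changes of -0.21, -0.18, -0.12 and -0.15 without radiation 3. These 5 of 13 compare with 4.83% of all tested genes that lay wholly below radiation. MT-RNR2, the large mitochondrial rRNA, was at 319900, 312100 and 260900 CPM in radiation and 277500 to 283100 CPM in the combination, so that a call without radiation 3 (edgeR adjusted p = 0.0356) was met by overlap with it. Of the other mitochondrial rRNAs and tRNAs, 0 of 20 tested were called.

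Nuclear genes for the same complexes had a log2 change below 0 in both fits in 30 of 38 cases. Their median log2 change was -0.24 without radiation 3 and -0.14 with it, beside 0.03 and -0.04 for all genes. Of the 38, 2 were called lower without radiation 3, against 0.347% of all genes. Among them was the ATP synthase subunit ATP5F1A, whose groups overlapped with radiation 3 included. UQCC6, an assembly factor of complex III, went from 16.8, 19.4 and 10.6 CPM to 8.79, 9.91 and 10.3 CPM, a log2 change of -0.90 ± 0.17 without radiation 3 (edgeR adjusted p = 0.00803) and -0.69 with it. In UQCC6 radiation 3 stood just above the highest combination library. ATP5F1E, the epsilon subunit of ATP synthase and chosen after its values were seen, went from 142.1, 137.8 and 111.5 CPM to 101.2, 100.9 and 98.9 CPM (edgeR adjusted p = 0.0026). The UQCC6 and ATP5F1E calls were kept in all 8 fits. Factors that replicate and transcribe the mitochondrial genome gave 0 edgeR calls of 22, and DESeq2 called TFAM lower without radiation 3; TFAM, with the smallest p of the list, had 52.3, 49.3 and 40.7 CPM in radiation and 34.9, 39.9 and 43.1 CPM in the combination.

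Genes of cholesterol synthesis and uptake, which the factor SREBP2 controls, had a log2 change below 0 in both fits in 18 of 24 cases. The list's median log2 change was -0.26 without radiation 3 and -0.19 with it, beside 0.03 and -0.04 for all genes. For genes of at least 100 CPM the medians were -0.09 and -0.01. The list's median was below 0 under each scaling tried. Called lower without radiation 3 were 4 of the 24, against 0.347% of all genes and 55 of the 1397 of at least 100 CPM. The 4 include FDFT1, or squalene synthase, INSIG1, which retains the SREBP complex in the endoplasmic reticulum, and STARD4, a carrier of cholesterol between membranes. STARD4 alone of those named was held. It went from 47.0, 47.5 and 34.4 CPM to 33.3, 28.5 and 33.7 CPM (log2 change -0.57 ± 0.11 without radiation 3). Its edgeR adjusted p was 0.00781 without radiation 3 and 0.57 with it. The call was lost without radiation 1, which left 1 radiation library (log2 change -0.58), and without combination 2 (edgeR adjusted p = 0.0584). INSIG1 measured 101.6, 87.2 and 63.6 CPM in radiation and 60.6, 64.8 and 66.3 CPM in the combination, where radiation 3 lay among the combination libraries. Of 11 genes of fatty acid synthesis edgeR called 0 (2 at an unadjusted p under 0.05) and DESeq2 1, SREBF1, without radiation 3; SREBF1 had 43.9, 38.8 and 31.4 CPM in radiation and 25.3, 31.8 and 33.3 CPM in the combination.

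Replication-dependent histone mRNAs, made in S phase, summed to 686.5, 605.3 and 495.8 CPM in radiation and 553.2, 586.1 and 541.7 CPM in the combination. The groups overlapped (log2 ratio -0.09, exact two-sided permutation p = 0.6), and the ratio was -0.21 without radiation 3 and 0.03 without radiation 1. Of 50 tested, 1 was called lower without radiation 3, the linker histone gene H1-2, at 46.1, 37.3 and 28.4 CPM in radiation and 22.1, 29.4 and 20.8 CPM in the combination. There combination 2 was above radiation 3. Chaperones of the endoplasmic reticulum gave 1 call of 24, HSP90B1, which fell from 1514, 1329 and 1355 CPM to 1126, 1138 and 1212 CPM (log2 change -0.30 ± 0.065, edgeR adjusted p = 0.0274 without radiation 3). Leaving out vehicle 2, radiation 1, combination 1 or combination 2 ended this call (up to 0.525), as did library size alone and limma-voom. The cytosolic and mitochondrial heat shock list gave 0 edgeR calls of 15 (5 at an unadjusted p under 0.05), DESeq2 called HSPD1 and HSP90AB1 lower without radiation 3 and limma-voom HSPD1, and HSPD1 went from 383.8, 339.6 and 315.9 CPM to 289.8, 297.2 and 319.9 CPM, with overlap. The thymosin and actin list gave 1 call of 24, TMSB4X, and the hypoxia and glycolysis list 1 of 26, PGK1, whose 265.6 CPM in radiation 3 lay within the combination's 264.9 to 285.6 CPM.

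The list of the ATF4 response holds genes for amino acid import and synthesis that the factor ATF4 switches on under nutrient and endoplasmic reticulum stress. Its median log2 change was 0.15 without radiation 3 and 0.16 with it, and it was above 0 under each scaling tried. Of the 43 lists it had the highest median with radiation 3; without it the chemokines (0.18 over 7 tested genes), airway and alveolar markers (0.50 over 4) and erythroid and liver markers (1.09 over 2) were higher. Of 35 tested, 24 were above 0 in both fits and 7 below in both, but STC2 alone was called. The combination lay wholly above radiation in 6 of the 35 (17.1%), beside 5.82% of all tested genes. These were STC2, ASNS, SLC7A11, SLC7A5, SLC7A1 and SLC1A4, which include asparagine synthetase and 4 amino acid transporters. SLC7A5, the large subunit gene of the leucine transporter LAT1, measured 13.9, 16.6 and 13.9 CPM in radiation and 21, 23.1 and 21.4 CPM in the combination, with vehicle at 11.6 CPM. The log2 change was 0.52 ± 0.17 without radiation 3 (edgeR adjusted p = 0.179) and 0.56 ± 0.15 with it. ASNS measured 84.8, 94.4 and 79.9 CPM in radiation and 101.0, 97.3 and 110.8 CPM in the combination, with a log2 change of 0.20 (edgeR adjusted p = 0.636). DDIT3, which encodes the stress factor CHOP, lay on the other side, at 88.3, 81.1 and 71.1 CPM in radiation and 71.0, 67.6 and 59.4 CPM in the combination. ATF3 had 7.02, 5.94 and 9.25 CPM in radiation and 8.14, 10.1 and 7.42 CPM in the combination, with overlap. Of 20 aminoacyl-tRNA synthetases, 0 were called by edgeR, DESeq2 or limma-voom, 1 had an unadjusted p under 0.05 without radiation 3, and 4 were wholly above radiation (AARS1, CARS1, MARS1 and YARS1), while the list median changed sign with radiation 3, from -0.03 to 0.07.

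Genes of homologous recombination and the Fanconi anemia pathway gave 0 calls of 37 by edgeR (8 at an unadjusted p under 0.05; DESeq2 called 4 and limma-voom 1 without radiation 3), and 5 of them were wholly above radiation (13.5%, beside 5.82% of all tested genes): BRCA1, BRCA2, RAD51B, MUS81 and GEN1. BRCA1 measured 66.5, 62.5 and 64.0 CPM in radiation and 82.8, 82.8 and 76.1 CPM in the combination, with vehicle at 56.6 CPM. BRCA2 measured 112.9, 107.8 and 102.6 CPM in radiation and 148.3, 127.0 and 139.1 CPM in the combination, with vehicle at 87.2 CPM. In both genes the groups did not overlap, radiation 3 lay within or next to the range of radiation 1 and 2, and the log2 change was 0.32 ± 0.094 for BRCA1 and 0.32 ± 0.093 for BRCA2 without radiation 3 (edgeR adjusted p = 0.14 and 0.128). DESeq2 put both past the threshold without radiation 3 (adjusted p = 0.0364 and 0.048). With radiation 3 the log2 changes were 0.32 and 0.36. RAD54B, which had the smallest p of this list, went the other way, with 70.6, 58.7 and 50.1 CPM in radiation and 54.2, 44.3 and 46.5 CPM in the combination. The list's median log2 change was -0.01 without radiation 3 and 0.01 with it.

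**Figure D4:**
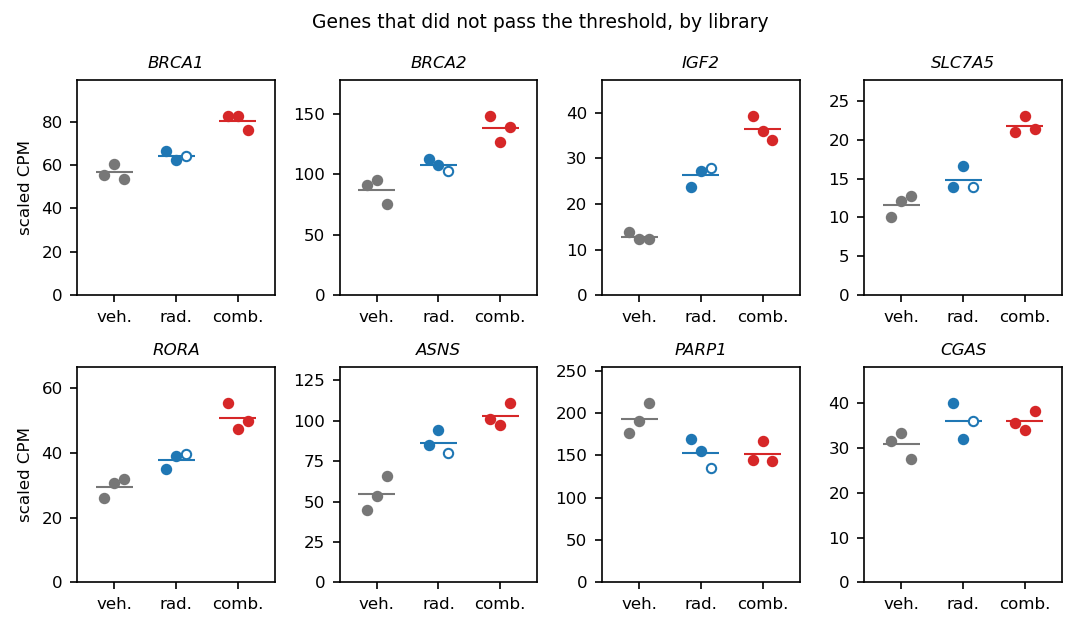
Level of 8 genes that did not pass the edgeR threshold in either fit, in scaled CPM on axes that start at 0, by library of vehicle, radiation and the combination. Points are libraries 1 to 3, open circles radiation 3, and lines group means. The 3 combination libraries lie above all radiation libraries for BRCA1, BRCA2, IGF2, SLC7A5, RORA and ASNS, and overlap them for PARP1 and CGAS.

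The mRNAs of the drug's targets were not called, and their groups overlapped. PARP1 measured 170.0, 155.1 and 135.3 CPM in radiation and 144.8, 167.2 and 142.9 CPM in the combination (log2 change -0.10 ± 0.087 without radiation 3 and -0.02 ± 0.11 with it). PARP2 measured 27.6, 23.6 and 17.2 CPM in radiation and 23.0, 20.6 and 23.3 CPM in the combination. Of 25 genes of poly(ADP-ribose) turnover and the PARP family, edgeR called 0 (2 at an unadjusted p under 0.05), while DESeq2 called HPF1 and NAMPT lower without radiation 3 and limma-voom NAMPT. HPF1, the cofactor that directs PARP1 to serine, was wholly lower, at 16.8, 16.4 and 13.3 CPM in radiation and 10.3, 11.3 and 11.4 CPM in the combination (log2 change -0.59 ± 0.17, edgeR adjusted p = 0.128 and DESeq2 0.0303 without radiation 3). There were likewise 0 edgeR calls among 20 genes of base excision and single-strand break repair and 29 of damage checkpoints and end joining, each with 3 members at an unadjusted p under 0.05. XRCC5, which had the smallest p of the checkpoint and end joining list, overlapped with radiation 3, and DESeq2 and limma-voom called it lower without that library.

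Damage response and cell cycle lists held few calls. Of 33 tested p53 target genes 1 was called without radiation 3, PLK2, at 444.6, 357.5 and 315.5 CPM in radiation and 322.0, 321.3 and 308.1 CPM in the combination, with overlap. The cell cycle inhibitor gene CDKN1A was low, at 1.60, 0.859 and 1.19 CPM in radiation and 1.99, 2.88 and 2.04 CPM in the combination, which did not overlap and did not pass (log2 change 0.90 ± 0.55, edgeR adjusted p = 0.638). MDM2 measured 192.6, 196.7 and 150.5 CPM in radiation and 168.3, 182.0 and 196.9 CPM in the combination. There were 0 edgeR calls among 43 genes of DNA replication, 48 of G2/M and mitosis and 26 of nucleotide synthesis, with 3, 14 and 5 at an unadjusted p under 0.05 without radiation 3, beside 10.0% of all genes. The 14 of G2/M and mitosis were 4 higher and 10 lower, a larger share than over all genes, and the 3 of DNA replication were a smaller one. With radiation 3, 4 of the G2/M and mitosis genes had an unadjusted p under 0.05. Of the 48, 5 lay wholly above radiation (10.4%, beside 5.82% of all tested genes) and 0 wholly below (beside 4.83%). DESeq2 called 0, 2 and 2 genes of replication, mitosis and nucleotide synthesis, and limma-voom 0, 2 and 0. Their members with the smallest p, RFC3, KIF20A and PRPS2, each overlapped with radiation 3. Of 25 apoptosis regulators 1 was called without radiation 3, MCL1, and radiation 3, at 237.5 CPM, lay below its combination values of 244.4 to 270.9 CPM.

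The series title names chemokines and PD-L1, so immune genes were followed whatever their values. CD274, the gene of PD-L1, had 10, 4 and 9 counts in radiation and 6, 8 and 3 in the combination, and CCL5 7, 9 and 29 against 7, 2 and 5; both were too low to be tested. CXCL10 had 2 counts in radiation 3 and 0 in the other 5 libraries compared. IFNB1 was at 0 in all of them, which allows a level of up to 0.102 to 0.187 CPM by library, as 3 counts of each total, counting error only. CGAS, the sensor of cytosolic DNA, measured 40.0, 31.9 and 36.1 CPM in radiation and 35.6, 34.1 and 38.1 CPM in the combination, a log2 change of -0.0017 ± 0.12 in both fits. Its partner STING1 had 0.237, 0.149 and 3.06 CPM in radiation and 0.199, 1.23 and 0.728 CPM in the combination, so that its level in radiation stood on radiation 3. There were 0 edgeR calls among the 7 chemokines tested of 35, 43 interferon-stimulated genes, 17 genes of nucleic acid sensing, 22 senescence-associated cytokines, 20 genes of MHC class I presentation and 16 immune checkpoint ligands. At an unadjusted p under 0.05 without radiation 3 these lists held 0, 0, 2, 2, 2 and 0 genes, and of all of them DESeq2 called CALR lower and limma-voom none. Differences of the sizes seen here could have been missed. In simulated counts, 16.7% of genes changed by 0.5 on the log2 scale and 52.2% of those changed by 1 were recovered without radiation 3. With it, 15.2% and 50.7% were. The changed genes all had at least 1 CPM, and the raised silent genes of radiation 3 were not simulated. Recovery of lower genes, such as CD274 and CCL5, was therefore not tested.

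**Figure D5:**
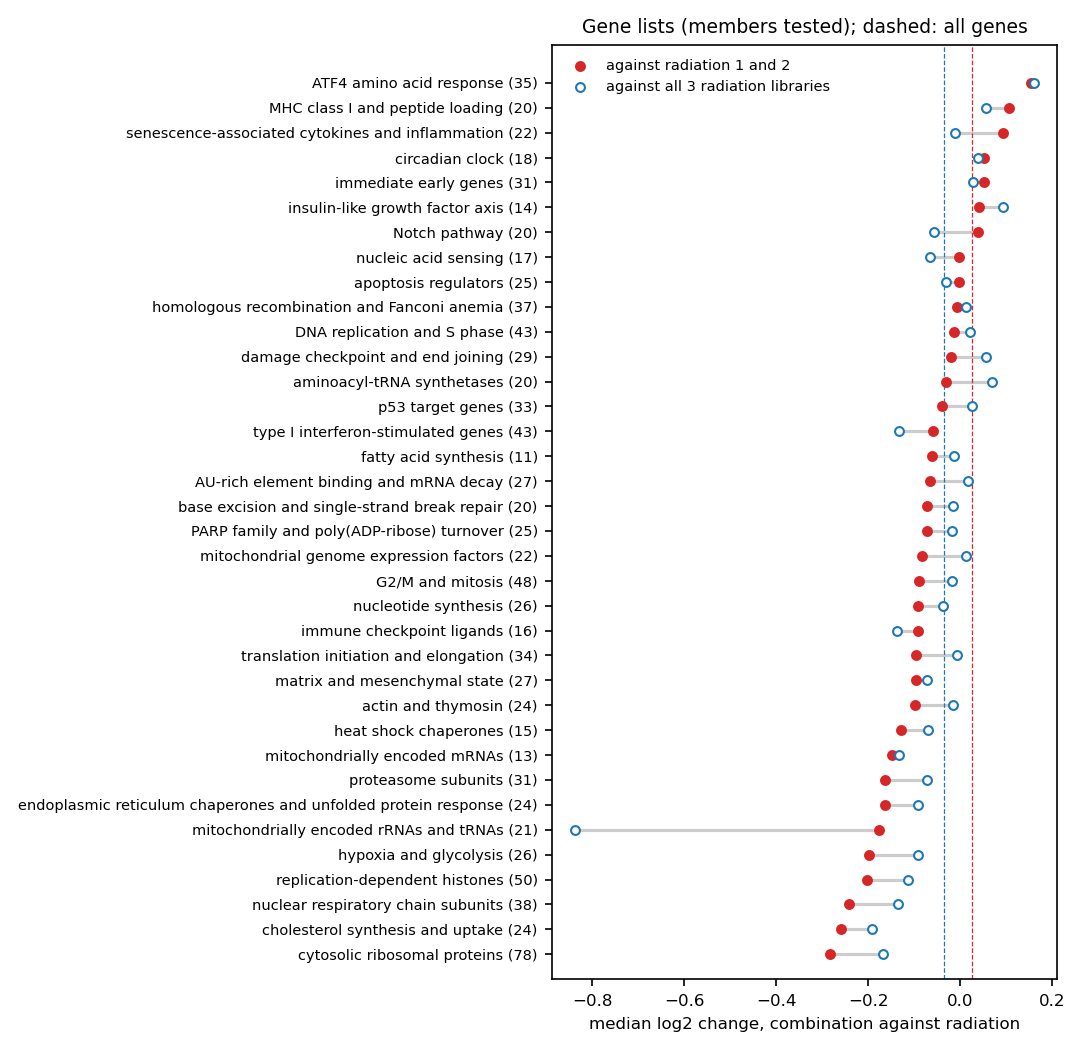
Median log2 change of the tested members of 36 gene lists, combination against radiation, without radiation 3 (filled) and with it (open). The lists are those of at least 10 tested genes, with all marker lists left out, that of small cell lung cancer included. The number of tested members follows each name. Dashed lines are the medians of all genes, 0.03 without radiation 3 and -0.04 with it. Of these 36, the cytosolic ribosomal protein list has the lowest median without radiation 3 (-0.28) and the ATF4 list the highest (0.15).

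The remaining lists held 0 edgeR calls: 27 genes of AU-rich element binding and mRNA decay, 31 immediate early genes, 20 of the Notch pathway, 18 of the circadian clock and 27 of matrix and mesenchymal state. At an unadjusted p under 0.05 without radiation 3 they held 5, 4, 5, 4 and 3 genes; DESeq2 called RORA in the clock list and 3 of the matrix list, VIM, LAMB1 and CTSK, and limma-voom RORA. In the clock list RORA, a nuclear receptor, was wholly higher, at 34.9, 39.1 and 39.7 CPM in radiation and 55.4, 47.2 and 49.9 CPM in the combination (log2 change 0.46 ± 0.12, edgeR adjusted p = 0.0726, DESeq2 0.0174 and limma-voom 0.0486 without radiation 3). Of the early genes 5 of 31 were wholly higher (16.1%, beside 5.82% of all tested genes), among them EGR1 at 12.2, 12.7 and 12.4 CPM in radiation and 14.2, 21.6 and 13.5 CPM in the combination, where combination 2 stood apart. Markers of other cell types gave 0 edgeR calls, 2 genes at an unadjusted p under 0.05 and, by DESeq2, 1 call, PDGFRA. Their summed level was raised in radiation 3 for endothelium (15.7 CPM, against 1.87 to 2.91 in radiation 1 and 2 and 1.94 to 2.13 in the combination) and for airway and alveolar epithelium (21.8 CPM, against 2.78 to 4.63 and 5.06 to 6.12). For fibroblast markers it was 104.0 CPM against 95.0 to 113.0 and 85.2 to 90.9, and for leukocyte markers 79.9 CPM against 85.5 to 94.1 and 84.5 to 104.0.

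Over the 45 genes that rose or fell, 12 calls were kept in each of the 8 fits that left out 1 library. They include STC2 and SORD2P among the rises, and HBP1, ATP5F1E, PNISR, SLC2A5, RPS27A, SOX2, UQCC6, TMSB4X and ZBED6 among the falls. None of the 45 changed sign under any alternative. The rule that picked them required the same sign in both fits and no overlap, so this was largely fixed in advance. In the fit without radiation 3, library size alone ended 16 of the 45 calls, all of them falls, and limma-voom ended 8, 3 rises and 5 falls. Fitting the compared groups alone ended 23, the replicate block 15 and scaling from genes of at least 10 CPM 8. DESeq2 gave no adjusted p for 9 of the 45, ALK, ZSCAN32, SORD2P and SLC2A5 among them, and called the other 36. The olfactory receptor sum of each library as a covariate ended 19 calls without radiation 3, 7 rises and 12 falls, among them FOXH1, ALK, IGF2BP1, ATXN7L1, MIR4435-2HG, ANK3, CCDC34, RPL34 and HSP90B1. With all 3 radiation libraries and that covariate, all 12 rises and 29 of the 33 falls passed the threshold. The covariate was high in radiation 3 alone, so this fit largely repeats the one without that library. These genes were called in that fit, so their passing here adds no support. When the 3 olaparib-only libraries, of which 2 carried olfactory receptor sums of 1897 and 2098 CPM, were added to the fit, none of the 45 passed.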

How the data were processed

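The deposited values are estimated counts per gene in SBC5 libraries, made by the authors with kallisto 0.46.1 per the submitters' processing notes, which also name DESeq2. The transcriptome release was not given in the sources used here, nor was the build. Rows of the 44 pseudoautosomal Y copies were added to their X counterparts, leaving 60605 genes, and the estimates were rounded; 68.8% had been whole to within 1e-06. In R 4.3.3 with edgeR 4.0.16 the default low-count filter, TMM factors and robust quasi-likelihood F-tests were used on 9 libraries (3 each of vehicle, radiation and combination) or 8 (without radiation 3), with Benjamini-Hochberg adjustment over all genes tested and a threshold of 0.05. Olaparib-only libraries stayed out. CPM are scaled by the 9-library factors. Each SE is the log2 change over the square root of F. The totals of 14.3 to 30 in units of 1e+06 limit precision at low counts.

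The 43 gene lists, the 2 fits and the comparison were chosen with earlier results of these data known, so they are no independent evidence; lists are described by counts and medians. Genes named were the 10 largest rises and falls among held genes with a symbol and at least 1 CPM. That level had to be met by the higher group in both fits. Also named were up to 4 held members of each list or else the member with the smallest p, and 16 genes fixed by name. The scripts were tested on simulated data with 200 changed genes. Alternatives were other scalings, filters and tools (DESeq2 1.42.0, limma-voom 3.58.1), other sets of libraries, a replicate block and the olfactory receptor covariate; scaling from genes of at least 10 CPM was added after seeing the data. Some genes that these rules would name are not reported here.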

Additional observations from a re-analysis of the deposited data

How the results depend on the processing

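None of the 45 held genes changed sign under any alternative, which the rule for held genes largely fixed in advance. Of the 116 calls without radiation 3, 3 turned sign or were not tested with it. With all 3 radiation libraries the counts of higher and lower genes, 1 and 0, were 0 and 0 with library size only, a stricter count filter, limma-voom or all groups with the olaparib libraries included, 15 and 29 with no count filter, 12 and 10 with DESeq2, 1 and 6 with scaling from genes of at least 10 CPM, and 44 and 72 with the olfactory receptor covariate. Without radiation 3 the counts, 22 and 94, were 64 and 41 with library size only, 100 and 179 with no filter, 44 and 110 with the stricter filter, 78 and 326 with DESeq2, 40 and 152 with limma-voom, 18 and 46 with the compared groups alone, 2 and 0 with all groups, 22 and 61 with the covariate, 44 and 67 with the 10 CPM scaling, and 12 and 5 at a log2 change of at least 1. The genes held, 12 higher and 33 lower, were 44 and 30, 55 and 52, 27 and 61, 53 and 70, 31 and 35, 9 and 20, 0 and 0, 40 and 41, and 26 and 49 under the same first 9 alternatives. The cause of these shifts was not tested.

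Same-numbered radiation and combination libraries did not deviate together (correlations of -0.017, -0.016 and -0.008). These correlations gave no sign of pairing. They covered all tested genes, many of them with few counts, so they cannot show that the libraries are unpaired. With the replicate block the counts were 3 and 1 with radiation 3, 20 and 62 without it, and 9 and 23 held.

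Leaving out 1 library at a time gave 0 to 22 higher and 0 to 94 lower genes with radiation 3, the upper ends without radiation 3. Without radiation 3 it gave 6 to 134 higher and 23 to 210 lower, the low ends without combination 2 and radiation 1 and the high ends without radiation 2. Held genes ranged from 3 to 66 higher and from 13 to 52 lower, again lowest without combination 2 and radiation 1 and highest without radiation 2. Where 1 radiation library remained, it was assumed to vary like the other groups. The summed log2 ratios ranged from -0.116 to -0.0838 for mitochondrial mRNAs, from -0.205 to 0.0255 for histones and from -0.207 to 0.0115 for ribosomal proteins; the last 2 reversed without radiation 1. Depth limits the low genes, CD274 and the chemokines among them.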
